A study of Homo sapiens with 6 samples.

Results

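The 8 genes TCF7, LEF1, TCF7L1, TCF7L2, CTNNB1, AXIN2, TOX and TOX2 were followed through the H3K27ac peak lists of Jurkat and 6T-CEM, human cell lines of T-cell acute lymphoblastic leukaemia. H3K27ac, acetylation of lysine 27 of histone H3, marks active promoters and enhancers. Every peak over a gene body or within 50 kb of it was taken, in hg38 coordinates, which gave 216 peaks of the 83410 on chromosomes 1 to 22 and X. Of these, 50 came from Jurkat replicate 1, 80 from Jurkat replicate 2 and 86 from 6T-CEM.

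The series holds 6 samples, of which 3 are H3K27ac libraries (Jurkat replicates 1 and 2, and a single 6T-CEM library) and 3 are IgG samples not analysed here. The design text speaks of cells given 10 nM of a compound for 24 h and the title names GNE-987, an inhibitor of BET bromodomain proteins, but the sample labels carry no treatment, so each library may be treated or untreated and none is compared as such. Whether separate cultures gave the Jurkat replicates is not stated in the labels. With 1 library of 6T-CEM its spread is unknown, no test of the lines was run, and the difference between the Jurkat replicates is given beside each value.

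TCF7 and LEF1 encode the main T-cell members of the TCF/LEF family, DNA-binding proteins with an HMG box, and TCF7L1 and TCF7L2 encode the remaining members. When a WNT ligand binds its receptor, beta-catenin, the product of CTNNB1, escapes the destruction complex, enters the nucleus and turns TCF/LEF proteins from repressors into activators. AXIN2, a scaffold of the destruction complex, is a widely used target gene of this pathway and acts back on it as an inhibitor. TCF7 and LEF1 drive the entry of progenitors into the T lineage, and both genes can also start from an internal promoter that gives a shorter protein without the beta-catenin binding part. TOX and TOX2 encode HMG-box proteins of a separate family that act in developing and in chronically stimulated T cells.

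The T-lineage identity of the lines was visible in the lists. Of 8 T-cell marker genes, 6 had a peak within 1 kb of a start in Jurkat replicate 1, all 8 in replicate 2, and 6 in the 6T-CEM library. CD2 and CD5 lacked one in 6T-CEM, and CD5 and CD7 lacked one in Jurkat replicate 1. None of the myeloid, erythroid and non-blood markers examined had one in any library. The lists differed in length, with 16159, 32097 and 35154 peaks covering 16.2, 27.6 and 34.3 Mb. Every 3 values are given in this order below: the Jurkat replicates 1 and 2, then 6T-CEM. They hold no read counts, so depth is unknown, and a gene without a peak is one where nothing passed the authors' caller, not one measured as 0.

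The promoters are shown first because the starts of the 8 genes fell into marked and unmarked ones. RefSeq promoter sequences (GRCh38.p14, the same build as hg38) were matched for 6 of the 8 genes, with 10 starts; TOX and AXIN2 had no entry. Each line gives the 250 bases before a start, 5′ to 3′ on the strand of the gene, with CpG dinucleotides in capitals.
TCF7, first start, chr5:134115363-134115612, plus strand: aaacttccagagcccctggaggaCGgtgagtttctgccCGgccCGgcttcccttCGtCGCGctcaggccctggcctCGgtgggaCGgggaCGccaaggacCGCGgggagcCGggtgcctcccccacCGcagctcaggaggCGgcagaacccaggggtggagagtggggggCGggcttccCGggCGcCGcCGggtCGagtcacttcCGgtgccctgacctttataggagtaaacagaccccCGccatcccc
TCF7, second start, chr5:134123368-134123617, plus strand: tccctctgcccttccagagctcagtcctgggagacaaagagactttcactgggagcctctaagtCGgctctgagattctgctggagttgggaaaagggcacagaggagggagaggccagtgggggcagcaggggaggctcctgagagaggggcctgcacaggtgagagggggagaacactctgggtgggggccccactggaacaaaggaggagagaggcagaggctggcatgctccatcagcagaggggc
LEF1, chr4:108166302-108166551, minus strand: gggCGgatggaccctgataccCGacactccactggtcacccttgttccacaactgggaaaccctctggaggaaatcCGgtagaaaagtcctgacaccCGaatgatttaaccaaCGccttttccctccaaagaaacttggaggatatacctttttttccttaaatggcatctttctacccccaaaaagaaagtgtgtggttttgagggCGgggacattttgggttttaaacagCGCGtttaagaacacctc
TCF7L1, chr2:85133142-85133391, plus strand: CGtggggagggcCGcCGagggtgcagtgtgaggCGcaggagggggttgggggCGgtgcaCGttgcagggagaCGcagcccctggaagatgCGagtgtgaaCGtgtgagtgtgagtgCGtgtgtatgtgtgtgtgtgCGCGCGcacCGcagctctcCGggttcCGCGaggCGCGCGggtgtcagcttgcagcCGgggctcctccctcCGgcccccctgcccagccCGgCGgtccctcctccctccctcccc
CTNNB1, chr3:41199255-41199504, plus strand: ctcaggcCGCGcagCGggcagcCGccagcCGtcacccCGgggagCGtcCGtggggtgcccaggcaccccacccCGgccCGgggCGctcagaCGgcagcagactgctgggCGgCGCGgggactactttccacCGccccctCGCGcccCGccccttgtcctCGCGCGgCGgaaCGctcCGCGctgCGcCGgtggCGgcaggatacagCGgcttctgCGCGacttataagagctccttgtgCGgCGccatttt

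These promoters differ widely in CpG content. The stretch before the first TCF7 start holds 22 CpG and that before the second holds 1. LEF1 has 8, TCF7L1 has 24 and CTNNB1 has 34, beside a median of 11 over all 34961 RefSeq promoters. The letters CTTTGAA or CTTTGAT, the core bound by TCF/LEF proteins, were searched on both strands and occurred in none of the 10 stretches, as against 5.95% of all promoters. AGATAA, the letters of a GATA site, occurred in none of the 10 and in 9.18% of all promoters. TGTGGT, the letters of a RUNX site, occurred once, on the strand of the gene and starting 57 bases before the LEF1 start, and in 11.0% of all promoters.

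Peaks lay within 1 kb of a start in 5 of the 8 genes in Jurkat replicate 1 and in 4 in each of the other libraries. Over all 19974 protein-coding genes the shares were 38.4%, 33.3% and 40.9%. TCF7, LEF1, TCF7L2 and TOX had such a peak in all libraries, as did 26.3% of all genes. TCF7L1, AXIN2 and TOX2 had none in any library, as did 50.7% of all genes. CTNNB1 had one in Jurkat replicate 1 alone, a pattern of 3.93% of all genes. None of the 8 had one in both Jurkat libraries and not in 6T-CEM, as 2.44% of all genes did. For TOX and AXIN2 either annotated gene end stood in for the start.

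Starts poor and rich in CpG were both found among the marked ones. All 250 bases before the second TCF7 start, with its single CpG, lay under a peak in all 3 libraries. In replicate 1 that peak was weak, with a fold of 2.43 and a −log10 q of 2.40. In replicate 2 and 6T-CEM the stretch lay inside wide peaks of 7456 and 20595 bases. Among the 11979 promoters with 0 to 4 CpG, 4.60%, 6.90% and 7.82% had a peak within 1 kb. Of the 11374 promoters with 20 or more CpG, 52.5%, 43.1% and 53.9% had one. The members hold 5 such starts. The first TCF7L2 start, with 21 CpG, was marked in all libraries, the first TCF7 start, with 22, in Jurkat replicate 2 and 6T-CEM, and CTNNB1, with 34, in Jurkat replicate 1. TCF7L1, with 24, and the first TOX2 start, with 26, had no peak within 1 kb.

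TCF7 carried the most H3K27ac of the 8 genes in Jurkat replicate 2 and 6T-CEM. Peaks covered 11373 bases of the gene and its flanks in Jurkat replicate 1, then 48308 in replicate 2, and 61569 in the 6T-CEM library. Replicate 1 was low, while replicate 2 and 6T-CEM were high and close to each other. As shares of the window these are 8.12%, 34.5% and 44.0%, above 96.6%, 99.91% and 99.97% of all genes in the same libraries. The ratio of 6T-CEM to replicate 2 was 1.27-fold with 500 bases added to each sum, whereas replicate 2 exceeded replicate 1 by 4.11-fold. The ratio of 6T-CEM to replicate 1 was 5.23-fold. How far 6T-CEM stood from Jurkat at TCF7 thus depended on the Jurkat library it was set against.

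**Figure D1:**
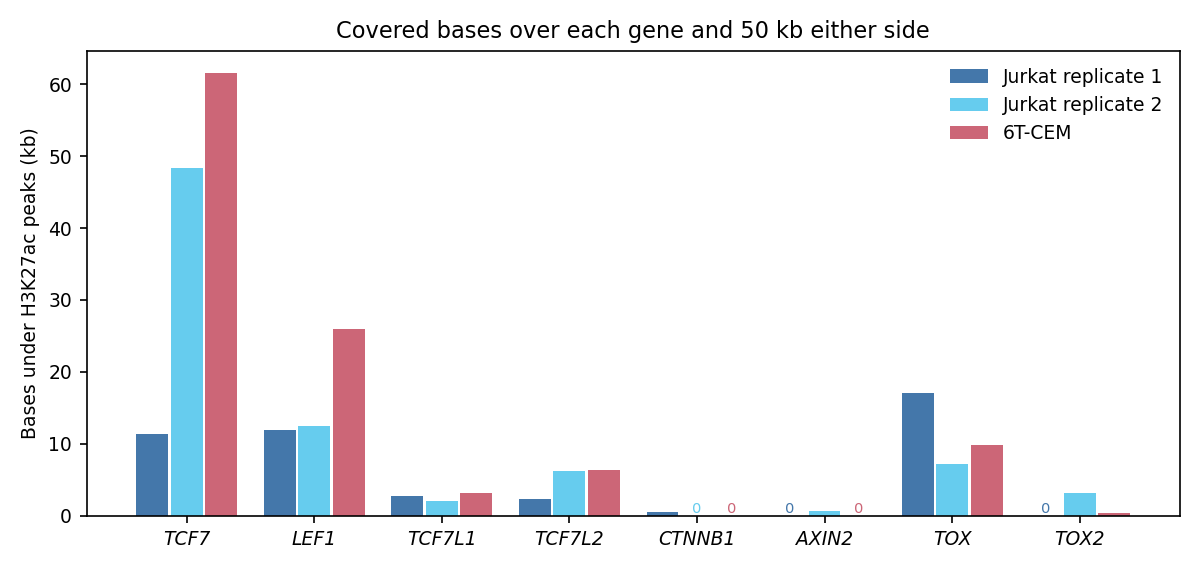
Bases under H3K27ac peaks (kb) over each of the 8 genes and 50 kb either side, 1 bar per library, with 0 printed where a library had no peak. TCF7 stands highest in Jurkat replicate 2 and 6T-CEM (48308 and 61569 bases), and CTNNB1 and AXIN2 are at or near 0. TOX2 is at or near 0 except in Jurkat replicate 2 (3151 bases).

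The gene body itself (chr5:134108218-134148210) was almost filled with peaks in the high libraries. Covered bases made up 21.7%, 81.2% and 87.7% of the 40.0 kb body. In 6T-CEM a single peak of 20595 bases at chr5:134114870-134135464, fold 7.91, covered both TCF7 starts and was the peak of width rank 2 among the 35154 of that list. Beside it lay a peak of 6446 bases at chr5:134135845-134142290 with the highest fold of the window, 11.9. Replicate 2 held 3 wide peaks over the same stretch, of 7456, 8347 and 10701 bases, ranking 63, 40 and 16 by width, with folds of 8.20, 6.10 and 6.24. Replicate 1 had smaller and weaker peaks there. The widest, 2524 bases over the second start, had a fold of 2.43 and a −log10 q of 2.40, near the lowest value deposited. The nearest replicate 1 peak to the first start ended 1005 bases before it, so this start counted as unmarked in that library.

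**Figure D2:**
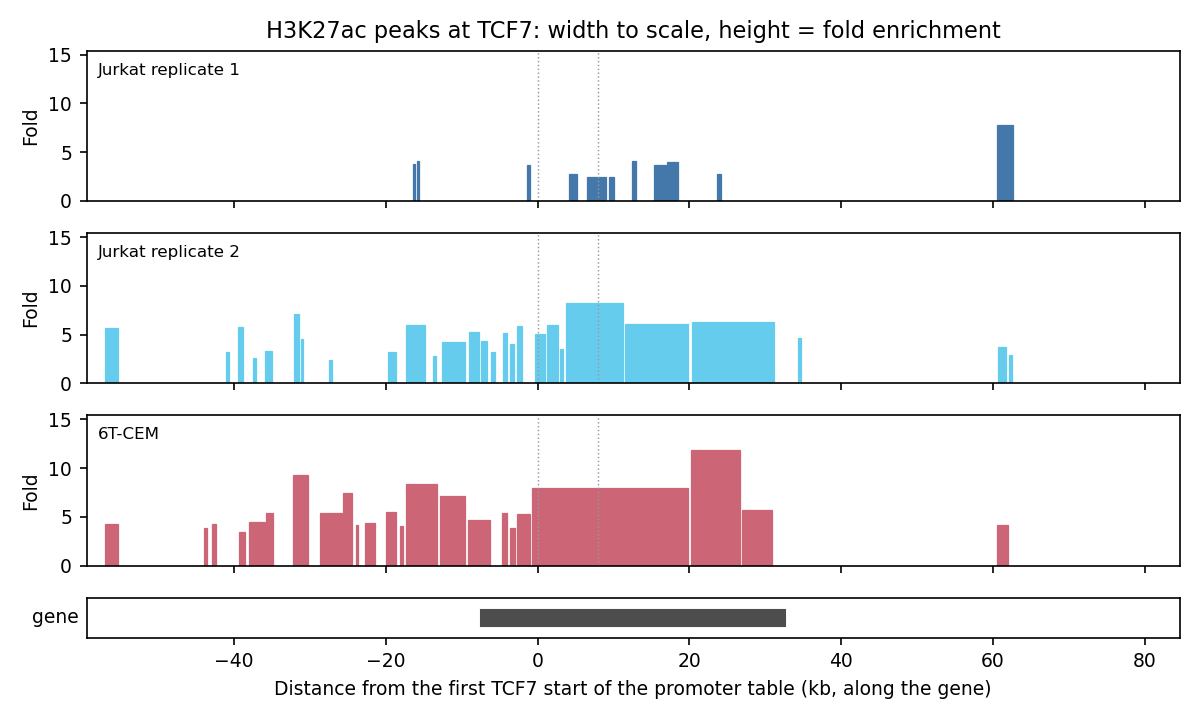
H3K27ac peaks in the TCF7 window, 1 row per library, with distance from the first start (kb) on the x axis, fold enrichment on the y axis and dotted lines at both starts; narrow peaks are drawn with a minimum line width. The wide blocks over the gene in Jurkat replicate 2 and 6T-CEM (up to 10701 and 20595 bases) are broken into short, low peaks in Jurkat replicate 1.

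Upstream of TCF7 the same division was seen. On that side, within the annotated body of VDAC1, a mitochondrial channel gene, 2 peaks with 644 bases were called in replicate 1, 13 with 13978 bases in replicate 2, and 15 with 25003 bases in 6T-CEM. The upstream side thus held 5.66%, 28.9% and 40.6% of the covered bases of the window. On the other side, the start of SKP1, a ubiquitin ligase subunit gene, was marked in all libraries, and there replicate 1 had its highest fold, 7.79, against 3.70 in replicate 2 and 4.16 in 6T-CEM. VDAC1 extends past the window, and its start inside the window, at chr5:134071011, had a peak in 6T-CEM alone. Any VDAC1 start outside the window was left out here.

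The overlap of the lists at TCF7 is to be read beside how much of the gene was covered. Of the bases covered in replicate 1, 91.9% were also covered in replicate 2 and 94.2% in 6T-CEM. Of those covered in replicate 2, 21.6% were covered in replicate 1 and 94.5% in 6T-CEM. With 81.2% and 87.7% of the body under peaks in the high libraries, these shares alone do not show that the peaks sit at the same places. In the region over both starts the summits lay up to 5683 bases apart. In the other shared TCF7 regions they lay at most 1244 bases apart, and in most of those within 356 bases. When the lists were cut to equal length, TCF7 kept 11373, 43526 and 58539 bases. The part of list length and depth in the difference between the Jurkat libraries was not tested.

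LEF1 (chr4:108047548-108168932) was the gene at which the Jurkat replicates were closest to each other. Its 221.4 kb window held 11936, 12520 and 25988 covered bases, in 15, 19 and 36 peaks. 6T-CEM was above both Jurkat libraries. As shares of the window these sums are 5.39%, 5.66% and 11.7%, above 92.37%, 83.98% and 92.69% of all genes in the same libraries. Ranked among all genes, LEF1 thus stood about as high in Jurkat replicate 1 as in 6T-CEM, and lower in replicate 2. 6T-CEM exceeded the higher Jurkat library by 2.03-fold, just past the 2-fold used as a call, and replicate 2 exceeded replicate 1 by 1.05-fold. Of the 8 genes, LEF1 alone was called higher in 6T-CEM, beside 11.7% of all protein-coding genes called that way. None of the 8 was called lower, beside 2.15% of all genes. A share of 1 in 8 is near the background, and the LEF1 call was lost at equal list length, where the values were 11936, 6737 and 16210 bases, and with 2000 rather than 500 bases added.

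The strongest acetylation of LEF1 in 6T-CEM lay at its 5′ end. In the Jurkat libraries the highest folds lay elsewhere, at 5.92 beyond the 3′ end in replicate 1 and 6.73 within the gene in replicate 2. By −log10 q, however, the peak over the LEF1 start was the highest of the window in both Jurkat libraries, at 10.6 and 16.0. The start of the promoter table is 2631 bases inside the annotated gene end, and a region of 3733 bases at chr4:108165800-108169532 covered it in all libraries. Its top folds were 5.88, 4.86 and 14.6. A neighbouring region at chr4:108171427-108173632, in the antisense transcript LEF1-AS1, had folds of 5.12, 3.72 and 14.2. The 6T-CEM peaks at these places exceeded 99.0% and 98.9% of that list in fold. A histone mark has no strand, and the protein-coding gene LOC124900752 also starts under the first of these regions, with a start peak in all libraries, so the marks of LEF1, LEF1-AS1 and LOC124900752 cannot be told apart.

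The larger part of the difference at LEF1 came from the side beyond its 3′ end. There 6T-CEM had 16 peaks with 10777 bases, while Jurkat replicate 1 had 3 peaks with 1700 bases and replicate 2 had 7 with 3469 bases. Within the body the values were closer, at 7709, 7561 and 11169 bases. Beyond the 3′ end lies HADH, a fatty acid oxidation gene that extends past the window. A HADH start inside the window, at chr4:108004611, was marked in 6T-CEM alone. Any HADH start outside the window was left out here. Of the 3′ peaks of 6T-CEM, 10 lay in HADH. The highest, at chr4:108035675-108037439, lay between HADH and LEF1, with folds of 4.87, 4.37 and 13.7. With a window of 10 kb in place of 50 kb LEF1 had 10900, 9919 and 16541 bases and was no longer called. Which gene these peaks serve was not tested.

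**Figure D3:**
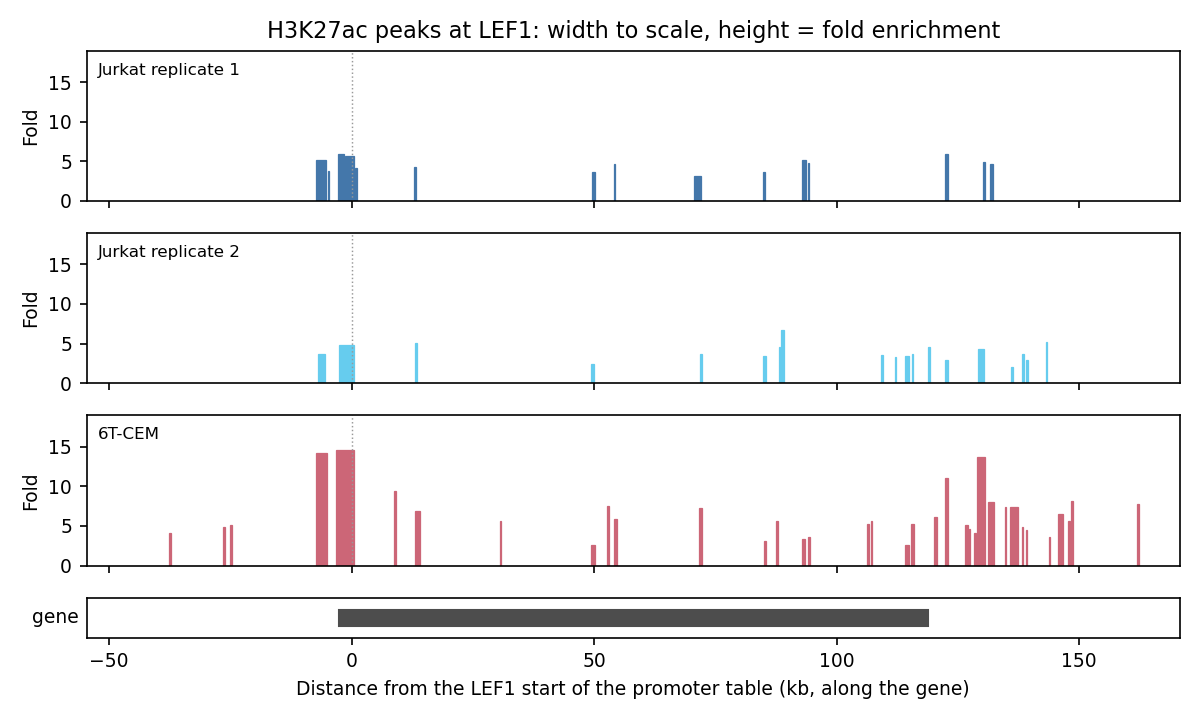
H3K27ac peaks in the LEF1 window, drawn along the direction of the gene, with distance from the start in the promoter table (kb) on the x axis and fold enrichment on the y axis; narrow peaks are drawn with a minimum line width. The 6T-CEM peaks at the start and beyond the 3′ end reach folds of 14.6 and 13.7, whereas no Jurkat peak in the window exceeds 6.73.

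At TOX (chr8:58805412-59119147), as at the barely marked CTNNB1, Jurkat replicate 1 had the most covered bases. Its 413.7 kb window held 17059, 7237 and 9782 covered bases. Replicate 1 was high, and 6T-CEM lay between the Jurkat libraries. These are 4.12%, 1.75% and 2.36% of the window. The ratio of replicate 1 to replicate 2 was 2.27-fold, although the replicate 1 list is the shortest.

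The highest folds at TOX lay in regions common to the libraries, but most TOX regions were not. Of its 26 regions, 5 held peaks of all libraries, and 8 were in replicate 1 alone, 3 in replicate 2 alone and 5 in 6T-CEM alone. Among all 49528 regions, 17.4% held peaks of all libraries, and 5.39%, 23.9% and 32.2% were in 1 library alone. At TOX the bases covered in all libraries numbered 4311. One common region at chr8:59117177-59120184 covered the gene end that borders the divergent transcript TOX-DT, 63 bases away. In replicate 2 its nearest peak stopped 36 bases from that end. The top folds of the region were 12.3, 5.90 and 13.0. In 6T-CEM this peak had a −log10 q of 92.5, rank 6 of the whole list. Inside the gene, a region at chr8:59054943-59057475 had folds of 12.3, 7.20 and 8.12, and its neighbour at chr8:59057689-59059207 had 7.59, 10.6 and 11.1. A further intragenic region at chr8:59017443-59019074 had 11.3, 5.93 and 9.83. In these 4 regions the summits of the libraries lay within 125 to 280 bases of each other. Long parts of the gene body were without peaks in every library.

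**Figure D4:**
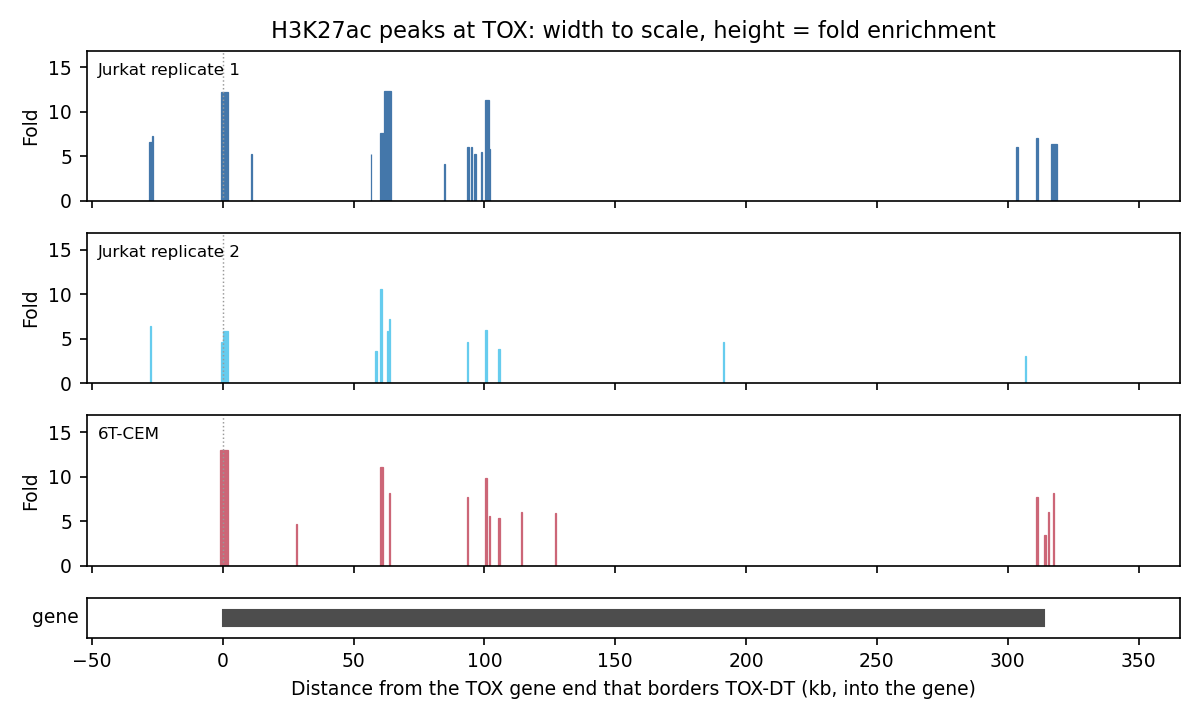
H3K27ac peaks in the TOX window, drawn from the gene end that borders TOX-DT into the gene (distance in kb), with fold enrichment on the y axis; narrow peaks are drawn with a minimum line width. All libraries have peaks at the gene end and at the 4 other common regions inside the gene, among others that they do not share, the end peak with folds of 12.3, 5.90 and 13.0.

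TCF7L2 (chr10:112950247-113167678) was sparsely marked, and most of its peaks differed between the libraries. Its window held 2323, 6185 and 6400 covered bases, which is 0.73%, 1.95% and 2.02%. Replicate 1 was low, and replicate 2 and 6T-CEM differed by 1.03-fold. A peak close behind the first start was shared: it began 772, 810 and 741 bases downstream of the start, with folds of 4.99, 3.35 and 3.61. Of the 18 regions in the window, 2 were in both Jurkat libraries and not in 6T-CEM, at chr10:113161225-113162657 and chr10:113170088-113170666 at and just beyond the 3′ end. The 6T-CEM library alone held 8 regions, all within the gene body, with folds of up to 9.19 at chr10:113060562-113061068. Replicate 2 alone held 6. Among all regions, 3.20% were in both Jurkat libraries only, 32.2% in 6T-CEM alone and 23.9% in replicate 2 alone. At TCF7L2, 1 region behind the first start was in both lines, at chr10:113133745-113134237. Its folds were 4.47 in replicate 2 and 4.24 in 6T-CEM, with summits 23 bases apart. Replicate 2 and 6T-CEM shared 17.7% of the bases of the former at TCF7L2.

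TCF7L1, mostly known as a repressor in stem cells, was not marked as a gene. Its window held 2764, 2055 and 3197 covered bases, but nearly all of them lay at the starts of its neighbours TGOLN2, a Golgi protein gene, and RETSAT and ELMOD3, which share a start region. Over the 177.0 kb body (chr2:85133392-85310387) there was no peak in replicate 1 and 6T-CEM and 1 peak of 330 bases in replicate 2. The CpG-rich promoter shown above was free of peaks for 119.9, 119.6 and 75.9 kb on the side before the gene.

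CTNNB1 and AXIN2, the pathway's effector and its feedback inhibitor, had almost no called acetylation. CTNNB1 (chr3:41199505-41240443) had 1 peak of 578 bases in Jurkat replicate 1, across its start at chr3:41199163-41199740, with a fold of 3.60, and none in the other libraries. That peak fell away when a −log10 q of 5 or more was asked for. In replicate 2 and 6T-CEM the gene lay in peak-free spans of 2069.4 and 1702.0 kb. AXIN2 (chr17:65528563-65561648) had no peak in replicate 1 and 6T-CEM. In replicate 2 it had a pair of small peaks, of 357 and 310 bases with folds of 3.40 and 3.24, both lost at equal list length. The peak-free spans around AXIN2 were 901.4 kb in replicate 1 and 2064.5 kb in 6T-CEM.

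TOX2 (chr20:43914852-44069616) was marked weakly and almost only in Jurkat replicate 2. It had no peak in replicate 1, 7 peaks with 3151 bases in replicate 2 and 1 peak of 324 bases in 6T-CEM. No fold exceeded 4.91, and neither of its starts had a peak nearer than 12999 bases in any library.

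Set side by side, the 4 TCF/LEF genes had more covered bases in 6T-CEM than in both Jurkat libraries, by folds of 1.03 to 2.03 over the higher of them, while CTNNB1, AXIN2, TOX and TOX2 did not. For TCF7L1 these bases lie at its neighbours' starts, and its log2 ratio was −0.41 with a window of 10 kb. For TCF7L2 the values at equal list length were 2323, 2573 and 2388 bases, a log2 ratio of −0.03. 6T-CEM lay above both Jurkat libraries at 40.9% of all genes. Set against the Jurkat mean, 6T-CEM had a log2 ratio of 1.03 for TCF7, 1.06 for LEF1, 0.35 for TCF7L1 and 0.54 for TCF7L2. It was −0.30 for TOX, −0.66 for CTNNB1, −0.74 for AXIN2 and −1.33 for TOX2. Over the 15640 genes with covered bases the median was 0.35, and the median of the 8 genes was 0.02. Relative to that median, TCF7 was at 0.69 and LEF1 at 0.71, and TOX2 at −1.68.

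Apart from LEF1, the log2 ratio between the Jurkat replicates was further from 0 at each gene than that of 6T-CEM to the Jurkat mean. At CTNNB1, AXIN2, TOX and TOX2 this had to hold, because 6T-CEM lay within the range of the Jurkat libraries. At TCF7L1 both log2 ratios were 0.35 when rounded. Between replicates 6 of the 8 genes differed 2-fold or more: CTNNB1 and TOX were higher in replicate 1, and TCF7, TCF7L2, AXIN2 and TOX2 were lower. Of all genes, 7.67% were higher and 19.5% lower by this rule. TCF7 stood at a log2 ratio of −2.04 for replicate 1 over 2, TOX2 at −2.87 and TOX at 1.18, where the median of all genes was −0.17. LEF1, at −0.07, and TCF7L1, at 0.35, were the genes on which the replicates differed least.

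**Figure D5:**
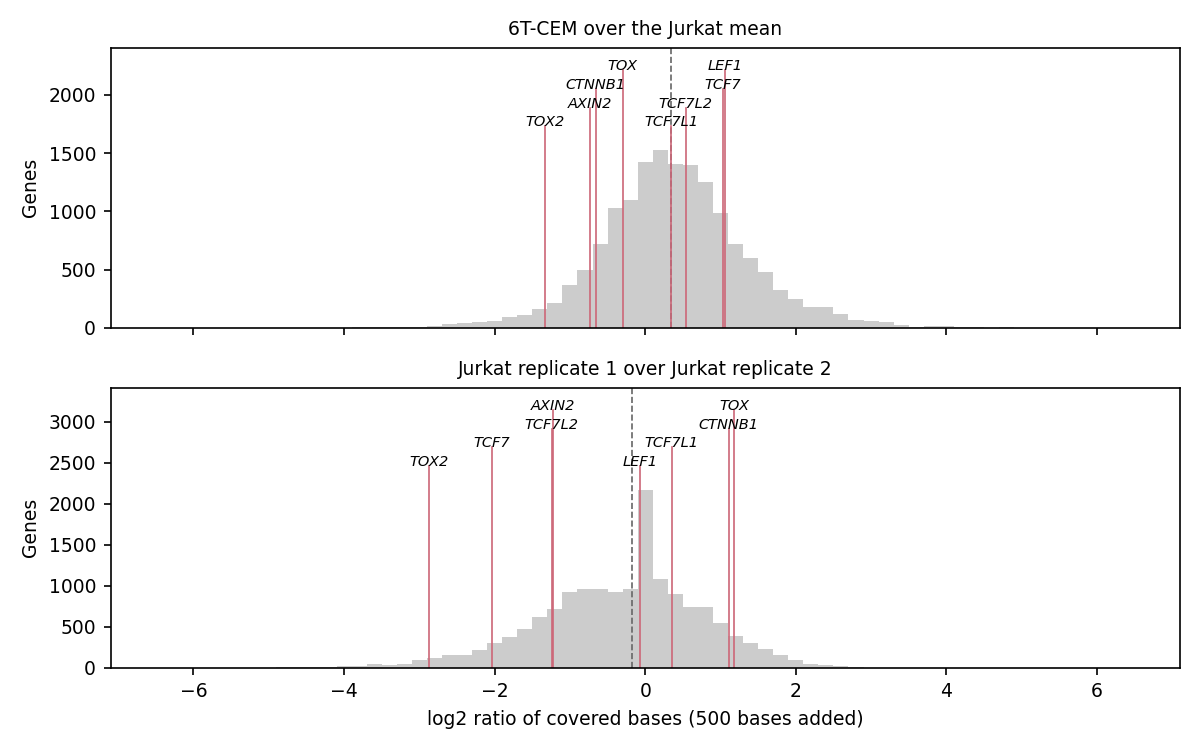
Histograms of the log2 ratio of covered bases over 15640 genes, for 6T-CEM over the Jurkat mean (top) and Jurkat replicate 1 over 2 (bottom), with red lines at the 8 genes and a dashed line at the median. The 8 genes run from −1.33 to 1.06 in the top panel and from −2.87 to 1.18 in the bottom one.

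The 216 peaks formed 127 regions when overlapping peaks of different libraries were joined. Of these, 21 held peaks of all libraries: 8 at LEF1, 5 at TCF7, 5 at TOX, 2 at TCF7L1 and 1 at TCF7L2. That is 16.5% of the 127, beside 17.4% of all 49528 regions. Regions in Jurkat replicate 2 and 6T-CEM but not replicate 1 numbered 18, and 11 of them were at TCF7. These 18 make up 14.2% of the 127, beside 14.5% of all regions, so both shares are near the background. Regions of 6T-CEM alone numbered 39, and 19 of them were at LEF1. These are 39 of the 85 regions with a 6T-CEM peak, and over the whole list 47.8% of such regions had no Jurkat peak. Of the 24 regions common to the Jurkat replicates, 87.5% were found in 6T-CEM as well (95% Clopper-Pearson interval 67.6 to 97.3), close to the 84.5% over all 10206 such regions. Of the replicate 1 regions, 57.1% were found in replicate 2 (41.0 to 72.3), compared with 70.3% of all replicate 1 regions. The intervals cover counting error only.

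When peaks 12.5 kb or less apart were joined, as is usual for super-enhancers, and ranked by width times fold within each list, TCF7 had the highest rank of the 8 genes in Jurkat replicate 2 and 6T-CEM. In 6T-CEM its joined region spanned 106.7 kb with 28 peaks, rank 17 of 13075. In Jurkat replicate 2 it spanned 75.8 kb with 24 peaks, rank 45 of 11190. Both reach upstream into VDAC1, and that of 6T-CEM, chr5:134039827-134146486, begins outside the 50 kb window. In replicate 1 the TCF7 region spanned 25.6 kb, ranked 694 of 8853 and was not among the 424 large regions of that list. LEF1 had 2 large regions in 6T-CEM, ranks 383 and 398, and none in Jurkat, where the best ranks were 540 and 1599. The region of rank 383, chr4:108017600-108081315, begins within HADH. TOX had 1 in replicate 1, rank 357, at the intragenic cluster described above, and none in the other libraries. Bodies of 2.92%, 5.56% and 5.27% of all genes met a large region. Because no read signal was used, these regions only approximate super-enhancers.

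The genes whose covered shares over the 3 libraries were most like those of TCF7 were SREBF1, TXNRD2 and RTL10, at distances of 0.22, 0.40 and 0.45 on the log2 scale of the percent covered. SREBF1 had 8.73%, 38.9% and 46.4% of its window covered. Those most like LEF1 were PPP1R15B, CASP10 and MLF2, at distances of 0.08, 0.10 and 0.16, with PPP1R15B at 5.16%, 5.86% and 11.5%. Such likeness rests on 3 values per gene and on lists of unequal length. Only genes whose windows overlap that of the member were left out, so the like genes may share peaks with each other.

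The wider WNT pathway was read from 92 genes in 7 groups by role. Over all genes, 38.4%, 33.3% and 40.9% had a start peak and 50.7% had none in any library. In the list 31, 28 and 33 genes had one and 50 had none. None of the 14 ligand genes had a start peak in any library, and 5 had no covered bases at all. Among 18 receptor and co-receptor genes, 4, 4 and 2 had a start peak. In the group of 15 surface and secreted inhibitors the counts were 2, 1 and 2. That group also held PORCN and WLS, which are not inhibitors, and PORCN gave 1 of its replicate 1 start peaks. The 18 genes of the cytoplasmic relay and destruction complex were the best marked group, with 14 start peaks in each library and 12 genes marked in all. Of 17 nuclear cofactor genes 10, 9 and 13 had a start peak, and of 8 common target genes 0, 0 and 2. Of the TOX relatives TOX3 and TOX4, 1, 0 and 0 had one.

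Of the 92 genes, 10 were called higher in 6T-CEM and 3 lower, where the shares of all genes were 11.7% and 2.15%. Over the list's genes with covered bases the median log2 ratio was 0.12, beside 0.35 over all such genes, and 23 of the 92 had no covered bases. The furthest towards 6T-CEM were TLE1 and TLE4, corepressors that bind TCF/LEF proteins. TLE1 was without covered bases in Jurkat and had 14020 in 6T-CEM, and TLE4 had 0, 0 and 3683. Both lie in spans of at least 1566.5 kb without a peak in either Jurkat library. Their relatives were not called, with log2 ratios of −0.02 for TLE2, 0.12 for TLE3 and 0.39 for TLE5, and neither were the corepressors CTBP1 at 0.94 and CTBP2 at −0.58. BCL9, a coactivator that binds beta-catenin, had 1631, 1381 and 8037 bases. BAMBI, a decoy receptor of the TGF-beta family and a WNT target, had 0, 0 and 1500. NKD1, a feedback inhibitor, had 0, 541 and 2159, with no peak over its body in any library. Its nearest peaks lay 31.6 kb away in replicate 2 and 30.0 kb away in 6T-CEM. DKK2, a secreted antagonist, had 0, 0 and 750.

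The genes called lower in 6T-CEM were LRP5, ZNRF3 and APCDD1. LRP5, a WNT co-receptor, had 3174 and 8399 bases in the Jurkat libraries and 691 in 6T-CEM, and its start was marked in both Jurkat libraries and not in 6T-CEM. ZNRF3, a ligase that removes WNT receptors and is itself a target gene, had 1848 and 1938 bases in Jurkat and 0 in 6T-CEM. In replicate 1 no peak lay over the ZNRF3 body, and the nearest was 15.7 kb away. APCDD1, an inhibitor at the cell surface, had 832, 536 and 0. No peak lay over the APCDD1 body in any library, and the nearest was 36.2 kb away in both Jurkat libraries. Which genes these flanking peaks serve was not tested. With lists of equal length, 6 genes were called higher and 6 lower, where the shares of all genes were 8.67% and 5.86%.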

How the data were processed

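One H3K27ac peak list per library was used. The submitters' processing notes name hg38, MACS2 2.2.7 and Bowtie2 2.2.5, without options. Use of IgG as control is not stated. The series text names CUT&Tag, while the labels' extraction protocol describes sonicated nuclei and an antibody. The deposited values are the authors' own: a fold enrichment ratio, −log10 p and −log10 q values, a score derived from the −log10 q, and the summit offset. The lowest deposited −log10 q was 2.01, 2.00 and 2.01. The peak names inside the lists differ in prefix between the Jurkat replicates, and what the prefixes mean is not given.

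Bases under peaks were summed per gene body plus 50 kb either side for 19974 protein-coding genes of RefSeq GRCh38.p14. A gene was called when 6T-CEM was 2-fold or more beyond both Jurkat libraries, with 500 bases added. Starts came from the RefSeq promoter table for 15812 genes and otherwise were both gene ends. Regions were groups of peaks sharing at least 1 base. Joined regions were called large above the tangent point of the curve of score against rank, both scaled to the same range. The named genes were the 8 members, neighbours with a marked start, the 6 furthest called genes per direction of the WNT list, and the 3 genes nearest in log2(percent covered + 0.1). The members and lists were chosen with earlier results of these data known. The result of a further marker list is not reported here. On simulated data 4000 of 4000 regions were classed as made and 600 window sums matched a recount. Software was matplotlib 3.10.9, SciPy 1.17.1, pandas 2.3.3, NumPy 2.4.6 and Python 3.11.15. Alternatives are given in the closing section.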

Additional observations from a re-analysis of the deposited data

How the results depend on the processing

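No paired analysis was possible because 6T-CEM has 1 H3K27ac library without a replicate number. The count of the 8 genes called higher in 6T-CEM, 1 as reported, was 0 at equal list length, 0 with a window of 10 kb and 0 with 2000 bases added, and ran from 1 to 3 when a Jurkat library was left out: LEF1 alone without replicate 1, and TCF7, LEF1 and TCF7L2 without replicate 2. The count called lower, 0 as reported, was 2 without replicate 1 (AXIN2 and TOX2) and 1 without replicate 2 (CTNNB1). The log2 ratio of TCF7 was 0.35 without replicate 1 and 2.39 without replicate 2, and that of TOX2, −1.33 as reported, was 0.72 without replicate 2. In Jurkat replicate 1, 3 genes rather than 5 had a start peak at a −log10 q of 5 or more. The share of Jurkat regions with a 6T-CEM peak was 54.2% without replicate 1 and 66.7% without replicate 2, and then rests on a single Jurkat list. Over all regions the same shares were 54.0% and 69.7%. Scoring joined regions by width alone gave 2 genes rather than 1 under a large region in replicate 1. In the WNT list, genes called higher numbered 6 at equal list length and 4 with 2000 bases added, and 14 to 21 without a Jurkat library, where 8.67%, 5.21%, and 18.0% to 26.6% of all genes were called. Those called lower numbered 6, 0 and 6 to 10, and 1 with a window of 100 kb, where the shares of all genes were 5.86%, 0.401%, 4.89% to 6.96%, and 1.99%. The log2 ratio of TCF7L1 was −0.41 with a window of 10 kb, and that of TCF7L2 was −0.03 at equal list length. Across the other combinations of these results and settings, 49 stayed within the replicate spread, the counting interval or 1.5 times the count. The cause of these changes was not tested. The unknown depth of the libraries limits every statement on a missing peak.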
